A study of Arabidopsis thaliana with 12 samples.

Results

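The genes described here are the 10 Arabidopsis thaliana loci that encode the main seed storage proteins and oleosins, out of 33602 loci with a deposited expression value. They were taken by locus code from a list chosen by their RPKM levels and differences in all 6 columns of these same data, so that every level and difference of them is given as a description, with no test. They comprise 3 cruciferins (CRA1, AT5G44120; CRU2, AT1G03880; CRU3, AT4G28520), 5 albumins (SESA1 to SESA5, AT4G27140, AT4G27150, AT4G27160, AT4G27170 and AT5G54740) and 2 oleosins (OLEO1, AT4G25140; OLEO2, AT5G40420). The study sequenced RNA from whole seedlings of the Columbia accession, 11 days old and grown in continuous light on half-strength medium with 2% sucrose, to set seedlings with impaired nonsense-mediated decay against controls. That pathway removes mRNAs with early stop codons. There were 12 libraries in 6 groups of 2.

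The first group was the double mutant lba1 upf3-1, with both the UPF1 and the UPF3 genes affected. The second was lba1, labelled upf1-/-, a point mutation in UPF1, the helicase that drives this decay. The third was upf3-1, labelled upf3-/-, in a partner of UPF1. The other groups were wild type seedlings kept for 4 h in liquid medium with 10 µg/ml cycloheximide, an inhibitor of translation, wild type seedlings kept for 4 h in the same medium without it (mock), and untreated wild type seedlings. The cycloheximide and mock groups share the wild type genotype and the liquid incubation, which the other groups lacked. Whole seedlings mix organs and cell types, and the drug affects translation of all mRNAs, so neither isolates a single cell type or the decay pathway alone.

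Storage proteins are made in the embryo while the seed matures and are broken down for nitrogen after germination. Cruciferins are the globulins of Arabidopsis seeds and the albumins are their small, cysteine-rich partners, and both are deposited in protein storage vacuoles. Oleosins coat the oil bodies of the embryo and keep them small. Transcription factors of the B3 and bZIP classes, among them ABI3, FUS3, LEC2 and bZIP53, switch these genes on in seeds, and chromatin repressors keep them silent in seedlings.

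The deposited file holds 1 value per gene and group in RPKM, a read count scaled to gene length and library depth, so no spread between replicates can be given, and none of the differences has a replicate check. The totals implied by the whole-read steps of low values were 82.05 to 90.25 M reads per column. UPF3 was at 4.82 RPKM in lba1 upf3-1 and 4.95 RPKM in upf3-1, against 13.1 RPKM in wild type, while the UPF1 transcript does not check the label of a point mutant. The leaf markers RBCS1A, CAB2 and PSBO1, 3 of 3 detected in every column, summed to 486 RPKM in lba1 upf3-1, 10567 in lba1, 11328 in upf3-1, 1896 with cycloheximide, 5527 in mock and 12701 in wild type. In bulk seedlings, fewer cells of a type and less RNA per cell cannot be told apart.

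The 250 bases upstream of each annotated gene start were searched on both strands for 3 motifs known from seed promoters, namely the RY core CATGCA, which B3 factors bind, the sequence ACGTG, and the G-box CACGTG, a site of bZIP factors that contains ACGTG. The RY core was present upstream of 9 of the 10 genes, against 8.43% of 27443 gene starts. ACGTG was present in 7 of 10 (22.9% of all), the G-box in 6 of 10 (6.49%), and the RY core together with ACGTG in 7 of 10 (2.22%). These matches are a description of the letters only. The sequences below were read from the TAIR10.1 genome at the starts of its RefSeq annotation, 5′ to 3′ on the gene's strand, with every motif match in capitals on whichever strand it lies. SESA1 and SESA2 are shown because they are tandem neighbours with a like arrangement and, with cycloheximide, very different levels. CRA1 is shown as the most abundant of the 10 genes in lba1 upf3-1, and OLEO1 as the gene shown with the most G-boxes.
SESA1, chr4:13607079-13607328, plus strand: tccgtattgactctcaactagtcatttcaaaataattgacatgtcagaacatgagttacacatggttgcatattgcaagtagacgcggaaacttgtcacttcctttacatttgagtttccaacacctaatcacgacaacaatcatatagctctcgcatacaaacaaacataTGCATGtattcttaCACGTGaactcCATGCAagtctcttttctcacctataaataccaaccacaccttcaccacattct
SESA2, chr4:13609091-13609340, plus strand: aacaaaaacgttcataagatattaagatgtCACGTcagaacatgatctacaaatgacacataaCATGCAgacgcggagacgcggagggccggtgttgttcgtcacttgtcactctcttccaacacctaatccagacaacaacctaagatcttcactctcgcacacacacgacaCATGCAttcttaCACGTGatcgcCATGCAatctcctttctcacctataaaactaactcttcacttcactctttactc
CRA1, chr5:17758337-17758586, minus strand: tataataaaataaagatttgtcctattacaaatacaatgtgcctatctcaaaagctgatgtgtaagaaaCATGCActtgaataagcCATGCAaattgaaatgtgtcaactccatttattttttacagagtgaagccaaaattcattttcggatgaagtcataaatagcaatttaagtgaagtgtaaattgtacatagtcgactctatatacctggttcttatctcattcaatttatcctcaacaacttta
OLEO1, chr4:12900180-12900429, plus strand: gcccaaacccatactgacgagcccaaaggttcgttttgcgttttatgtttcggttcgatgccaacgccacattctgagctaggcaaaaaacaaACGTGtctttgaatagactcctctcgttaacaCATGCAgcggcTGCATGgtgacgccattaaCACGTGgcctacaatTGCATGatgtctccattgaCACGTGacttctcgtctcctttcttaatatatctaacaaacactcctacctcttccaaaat

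All 5 albumin genes carried a G-box that began 65 to 68 bases before the start, with an RY core 54 to 57 bases before it. SESA1 held its G-box at 65 bases and RY cores at 79 and 54 bases, and SESA2 held the same G-box position with RY cores at 187, 77 and 54 bases. OLEO1 had 2 G-boxes, at 95 and 61 bases, and RY cores at 125, 114 and 80 bases. CRA1 had RY cores at 181 and 164 bases and no ACGTG.

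**Figure D1:**
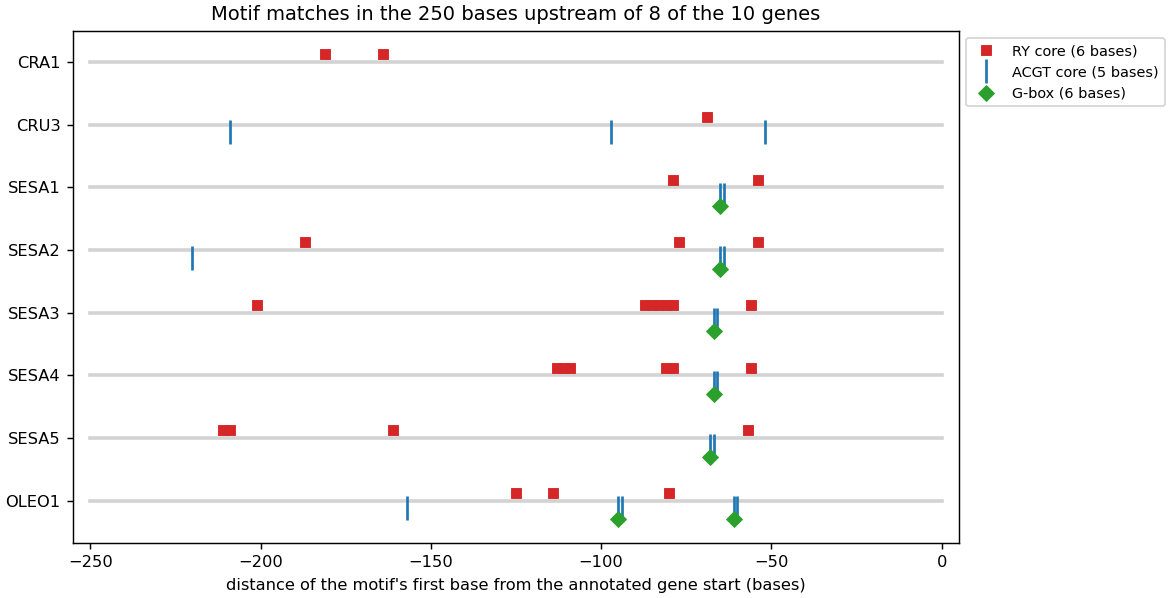
Position of each motif match in the 250 bases upstream of 8 of the 10 genes, as the distance in bases of its first base from the annotated gene start; red squares are RY cores, blue ticks ACGTG and green diamonds G-boxes. The 5 albumins share a G-box 65 to 68 bases before the start, and CRA1 has RY cores without an ACGTG.

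The cruciferins CRA1 and CRU3 were the most abundant of the 10 genes in lba1 upf3-1, and both were also detected in wild type seedlings. CRA1 was at 181 RPKM in lba1 upf3-1, 25.2 in lba1, 11.6 in upf3-1, 0.289 with cycloheximide, 1.49 in mock and 14.3 in wild type. It was thus highest in the double mutant and lowest in the liquid-incubated columns. CRU3 was at 95.2 RPKM in lba1 upf3-1, 27.1 in lba1, 1.64 in upf3-1, 1.14 with cycloheximide, 0.532 in mock and 4.99 in wild type. Its order was the same apart from the liquid-incubated columns, where it was above mock with cycloheximide while CRA1 was below it. CRU2 was at 0.839 RPKM in lba1 upf3-1, 0.216 in lba1 and 0.01 with cycloheximide, and at 0 in upf3-1, mock and wild type. It rested on 177 reads in the double mutant, 45 in lba1 and 2 with cycloheximide. The floor of 3 reads for CRU2 was 0.0153 RPKM in wild type.

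The coding sequences of CRA1 and CRU2 were 73.9% identical, and those of CRA1 and CRU3 59.4%. The deposited RPKM were divided by the whole gene span with its introns, as the read steps show, which lowers the values of genes with long introns. Per kilobase of exon, CRU2 would be 1.23 and CRA1 204 in lba1 upf3-1. CRU2 therefore stayed far below CRA1 on either length.

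Among the albumins, SESA1 stood apart through the cycloheximide column, and SESA5 was the most abundant in the 2 columns that carry lba1. SESA1 was at 2.63 RPKM in lba1 upf3-1, 4.505 in lba1, 0.11 in upf3-1, 795 with cycloheximide, 2.45 in mock and 0.017 in wild type. The cycloheximide value ranked 88 among the 33602 loci of that column and rested on about 46920 reads, whereas the wild type value rested on 1. SESA5 was at 18.1 RPKM in lba1 upf3-1, 7.51 in lba1, 0.027 in upf3-1, 0.245 with cycloheximide, 0.07 in mock and 0.044 in wild type. It was above 1 RPKM only in the 2 columns that carry lba1.

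The other albumin genes stayed low in every column. SESA2 was at 0.633 RPKM in lba1 upf3-1, 2.33 in lba1, 0.075 in upf3-1, 2.48 with cycloheximide, 0.079 in mock and 0.199 in wild type. SESA3 was at 0.724 RPKM in lba1 upf3-1, 0.867 in lba1 and 0.233 with cycloheximide, and at 0 in upf3-1, mock and wild type. SESA4 was at 0.099 RPKM in lba1 upf3-1, 0.151 in lba1, 0.032 in upf3-1, 0.243 with cycloheximide, 0 in mock and 0.089 in wild type, and its largest count was 14 reads. Thus SESA2 and SESA4 were highest with cycloheximide and SESA3 in lba1.

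SESA1 to SESA4 form a tandem array on chromosome 4, with gaps of 1309, 1720 and 1032 bases between neighbours, and SESA5 lies on chromosome 5. The coding sequence of SESA1 was 80.7% identical to that of SESA2, 80.6% to those of SESA3 and SESA4 and 60.9% to that of SESA5. The longest run that the exons of SESA1 shared was 38 bases with SESA2 and 41 bases with SESA3, and the handling of reads that match more than 1 gene is not given in the sources used here. With cycloheximide, SESA2, SESA3 and SESA4 had reads equal to 0.326%, 0.0320% and 0.0298% of those of SESA1. In lba1, SESA2 had 54.0% and SESA3 21.0% as many reads as SESA1. The values of SESA2 to SESA4 are uncertain for this reason where SESA1 is abundant, and the part of shared reads in them was not tested.

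Both oleosins followed one another closely. OLEO1 was at 41.5 RPKM in lba1 upf3-1, 5.25 in lba1, 0.742 in upf3-1, 0.052 with cycloheximide, 0.03 in mock and 0.817 in wild type. OLEO2 was at 44.9 RPKM in lba1 upf3-1, 5.14 in lba1, 1.11 in upf3-1, 0.017 with cycloheximide, 0.025 in mock and 0.999 in wild type. Over the 6 columns their log2(RPKM + 0.5) values had a Pearson's r of 0.998, a description over 6 points that share libraries and depth. Each overlaps a neighbouring locus at an end, OLEO1 AT4G25150 and OLEO2 AT5G40410, and the library kit does not mark strand, so reads from the shared ends cannot be told apart.

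**Figure D2:**
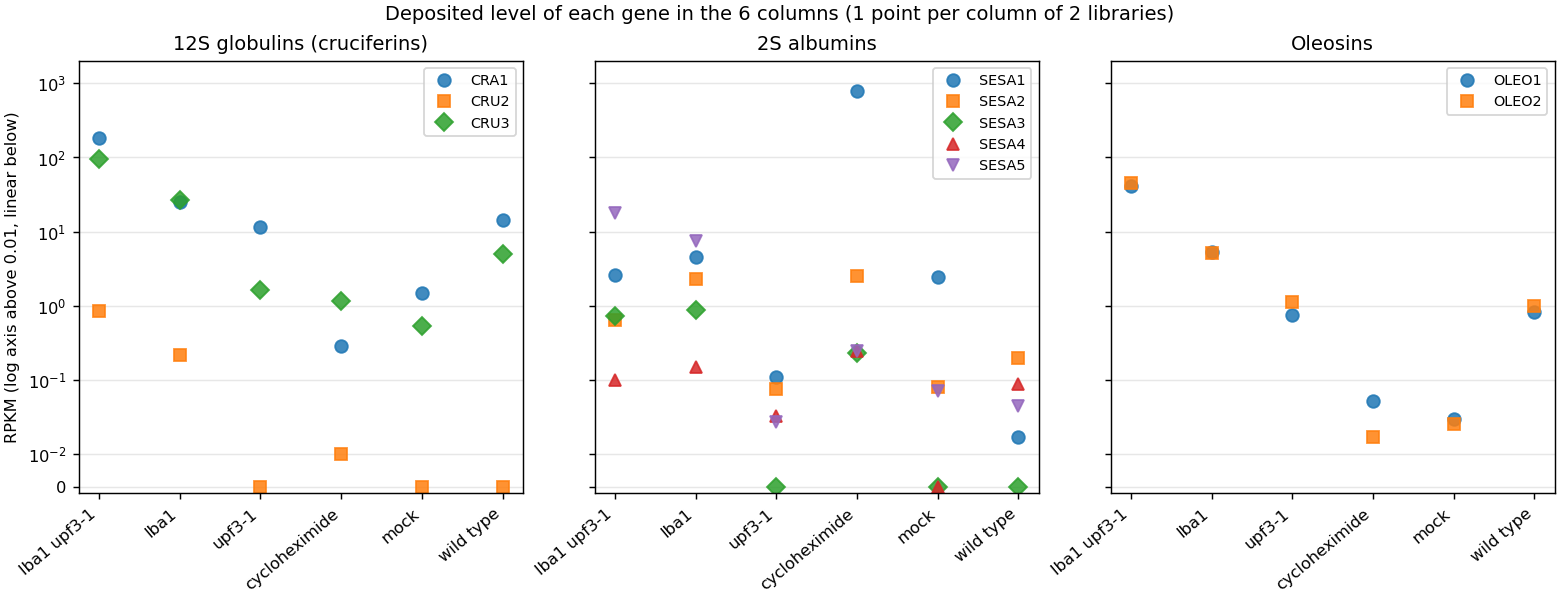
Deposited level of each gene in RPKM (log axis above 0.01, linear below) in the 6 columns, with 1 point per gene and column of 2 libraries and 1 panel per family. The oleosins and cruciferins are highest in lba1 upf3-1, and SESA1 reaches 795 RPKM with cycloheximide.

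In all, 6 of the 10 genes were highest in lba1 upf3-1, 3 with cycloheximide and 1 in lba1. The share of all loci highest in each column was not counted. Some of these places rested on close read counts. SESA2 had 153 reads with cycloheximide and 149 in lba1, SESA4 had 14 and 9, and SESA3 had 58 in lba1 and 49 in lba1 upf3-1. The summed RPKM of the 10 genes was 0.0842% of the column in lba1 upf3-1, 0.0168% in lba1, 0.00320% in upf3-1, 0.164% with cycloheximide, 0.00103% in mock and 0.00459% in wild type. SESA1 made up 99.4% of the sum with cycloheximide. In lba1 upf3-1, the cruciferins summed to 277 RPKM, the oleosins to 86.4 and the albumins to 22.2, with SESA5 giving 81.6% of the albumins. In wild type, the cruciferins summed to 19.3 RPKM, the oleosins to 1.82 and the albumins to 0.349. Of the 10 genes, 5 averaged 5 RPKM or more across the 6 groups (CRA1, CRU3, SESA1, OLEO1 and OLEO2), each through the columns in which it was high, so that the other 5 are outside the 14079 loci used as background below.

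**Figure D3:**
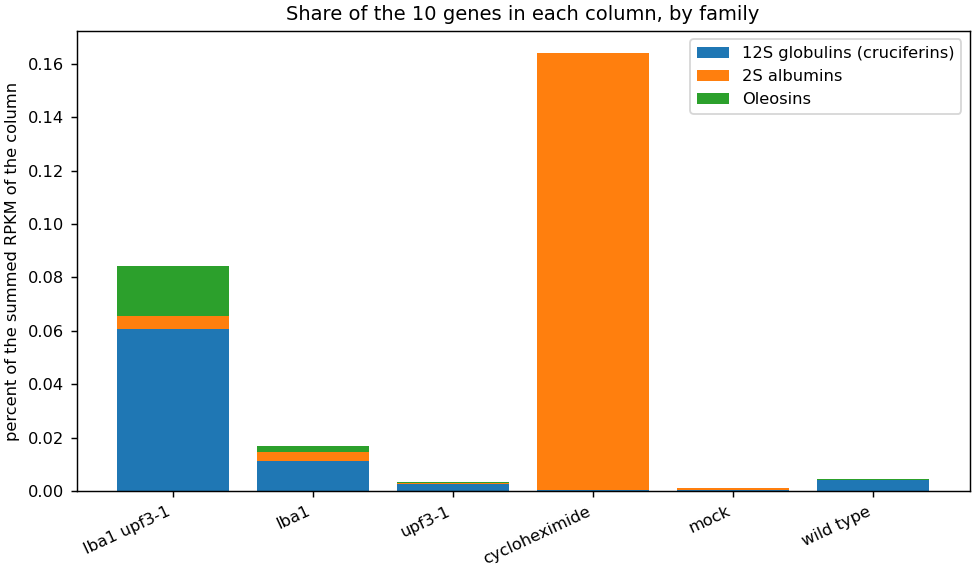
Share of the summed RPKM of each column, in percent, held by the 10 genes, with bars stacked by family and starting at 0. Cruciferins form most of the bar in lba1 upf3-1 and albumins nearly all of it with cycloheximide, at 0.0842% and 0.164% in total.

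Differences between columns were taken on log2(RPKM + 0.5), which understates the change of low genes, and a gene is called higher or lower at a difference of at least 1, a 2-fold rule of size. Ratios of RPKM are given with exact 95% intervals from the read counts, which cover counting error only. With both mutations, 8 of the 10 genes were higher than in wild type and 0 lower, where 22.1% of the background loci were higher and 21.2% lower (14.7% and 14.3% of all 33602 loci). The median difference of the 10 genes was 3.11, and that of the background loci 0.12. Since these values chose the genes, the counts of the 10 genes are printed beside the background without reading anything from them.

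The oleosins and SESA5 had the largest differences between lba1 upf3-1 and wild type. OLEO1 was 50.8 times as high in lba1 upf3-1 as in wild type (40.5 to 64.5), with a log2 difference of 4.99, and OLEO2 44.9 times as high (37.6 to 54.6), at 4.92. SESA5 had a ratio of 411 (140 to 1996), with 1320 reads in the double mutant and 3 in wild type. CRA1 was 12.7 times as high (12.2 to 13.2) and CRU3 19.1 times as high (17.9 to 20.4). CRU2 was at least 55.0-fold higher and SESA3 at least 15.2-fold higher, against the floor of 3 reads in wild type. SESA1 had a ratio of 155 (27.0 to 6053) with a single read in wild type. The remaining genes did not reach the rule. SESA2 was 3.18 times as high (1.65 to 6.67), on 41 and 12 reads, with a log2 difference of 0.70. SESA4 was at 0.02, and the interval of its ratio (1.11, 0.285 to 4.65) included equal levels.

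The leaf markers were lower in the same comparison, 3 of 3, with log2 differences of −5.03 to −3.87, and the root markers CASP1 and EXPA7 were at −2.39 and −2.45. The 5 testa and endosperm markers (BAN, TT2, MUM4, EPR1 and AGL62) summed to 17.7 RPKM in lba1 upf3-1, 29.3 in lba1, 22.5 in upf3-1, 10.6 with cycloheximide, 53.0 in mock and 30.3 in wild type. MUM4, an enzyme of seed coat mucilage, made up most of these sums, at 15.1 RPKM in lba1 upf3-1 against 29.8 in wild type. Without it, the sum was higher in each mutant than in wild type, at 2.66 RPKM in lba1 upf3-1, 2.41 in lba1, 1.80 in upf3-1, 0.808 with cycloheximide, 0.967 in mock and 0.504 in wild type. TT2, a regulator of testa pigment, was at 0 in lba1 upf3-1, lba1, upf3-1 and wild type. AGL62, an endosperm factor, made up most of the sum without MUM4 in the mutants, at 2.59 RPKM in lba1 upf3-1, 2.02 in lba1 and 1.74 in upf3-1, against 0.455 in wild type. The part of seed coat or endosperm RNA in these results was not tested.

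In lba1 alone, 7 of the 10 genes were higher than in wild type and 0 lower, where 4.77% of the background loci were higher and 1.93% lower (3.46% and 1.02% of all loci). The median was 1.96, against 0.08 for the background. SESA5 had 543 reads in lba1 and 3 in wild type, a ratio of 171 (58.1 to 831), and its log2 difference of 3.88 ranked 2 among all 33602 loci. OLEO1 was 6.43 times as high (5.06 to 8.28), OLEO2 5.14 times (4.23 to 6.33) and CRU3 5.44 times (5.07 to 5.84). SESA1 had 276 reads in lba1 and 1 in wild type, a ratio of 265 (46.4 to 10324). SESA2 was 11.7 times as high (6.51 to 23.2), and SESA3 at least 18.2-fold higher against the floor of 3 reads in wild type. CRA1, at 1.76 times (1.68 to 1.85), CRU2 and SESA4 did not reach the rule on log2(RPKM + 0.5). CRU2, with 45 reads in lba1 and 0 in wild type, was at least 14.2-fold higher against the floor of 3 reads, and the added 0.5 brought its difference to 0.52. SESA4 had 9 and 5 reads, a ratio of 1.70 (0.511 to 6.45).

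In upf3-1, 0 of the 10 genes were higher than in wild type and 1 was lower, where 3.81% of the background loci were higher and 0.547% lower (2.25% and 0.482% of all loci). The median was −0.07, against 0.05 for the background. The gene called was CRU3, at 0.329 times the wild type level (0.289 to 0.374), with a log2 difference of −1.36. CRA1 was at 0.814 times the wild type level (0.768 to 0.863). The intervals of OLEO1 (0.908, 0.654 to 1.26) and OLEO2 (1.11, 0.864 to 1.43) included equal levels, and so did that of SESA2 (0.377, 0.105 to 1.16). CRU2 and SESA3 were at 0 in both columns.

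Set directly against one another, lba1 was higher than upf3-1 by the 2-fold rule for 8 of the 10 genes and lower for 0. Of the background loci 0.945% were higher and 3.84% lower (0.833% and 1.89% of all loci). All 10 differences were above 0, and CRU2, which missed the rule, was at least 15.6-fold higher against the floor of 3 reads in upf3-1. The median was 2.01, against 0.08 for the background. CRU3 was 16.5 times as high in lba1 as in upf3-1 (14.8 to 18.5), OLEO1 7.08 times (5.56 to 9.11) and OLEO2 4.64 times (3.88 to 5.61). SESA1 was 41.0 times as high (19.6 to 103) and CRA1 2.17 times (2.06 to 2.28). This comparison shares its columns with those against wild type and is not independent of them.

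By the 2-fold rule, the double mutant was higher than upf3-1 for 8 of the 10 genes and higher than lba1 for 5. The differences were above 0 for 10 and 6 genes. SESA2 missed the rule against upf3-1 (0.98), at a ratio of 8.44 (3.33 to 27.3) on 41 and 5 reads. CRU2 missed it against lba1 (0.90), at a ratio of 3.88 (2.79 to 5.53) on 177 and 45 reads. Against upf3-1 the background had 16.6% higher and 20.9% lower loci (11.3% and 13.3% of all loci). Against lba1 it had 17.7% higher and 22.1% lower (11.5% and 15.8% of all loci), and 1 of the 10 genes was lower. The medians of the 10 genes were 3.13 against upf3-1 and 1.06 against lba1. OLEO1, OLEO2 and CRA1 were 7.90 times (7.20 to 8.66), 8.74 times (8.06 to 9.50) and 7.18 times (6.96 to 7.41) as high in lba1 upf3-1 as in lba1. CRU3 and SESA5 were 3.51 times (3.41 to 3.62) and 2.41 times (2.18 to 2.67) as high. The tandem albumins did not follow. SESA2 was lower in lba1 upf3-1 than in lba1, at 0.272 times (0.188 to 0.387), SESA1 was at 0.584 times (0.479 to 0.712), and the interval of SESA3 (0.835, 0.560 to 1.25) included equal levels.

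With cycloheximide, 2 of the 10 genes were higher than in mock and 1 was lower, where 13.3% of the background loci were higher and 44.1% lower (9.24% and 24.0% of all loci). The median was 0.47, against −0.81 for the background. SESA1 was at 795 RPKM with cycloheximide and 2.45 in mock, a ratio of 324 (276 to 383) and a log2 difference of 8.07, which ranked 10 among all loci. SESA2 had 153 reads with cycloheximide and 5 in mock, a ratio of 31.4 (13.2 to 98.3). CRA1 was the gene called lower, at 0.193 times the mock level (0.141 to 0.263), and CRU3 was at 2.15 times (1.69 to 2.74) and 0.67 on the log2 scale. CRU3 reached the 2-fold rule after median scaling (1.21) or quantile normalization (1.22), which move the background median of −0.81 to −0.10 and −0.23, and CRA1 no longer reached it after median scaling (−0.97). SESA3 was at least 5.15-fold higher and SESA4 at least 4.81-fold higher against the floor of 3 reads in mock. The values of SESA2 to SESA4 with cycloheximide are uncertain beside abundant SESA1, and the part of shared reads in them was not tested. OLEO1 had 5 reads with cycloheximide and 3 in mock, a ratio of 1.73 (0.333 to 11.0), and OLEO2 had 2 and 3 reads, too few for a ratio. The leaf markers were lower with cycloheximide than in mock, 3 of 3, at −1.72 to −1.47, and so were the root markers, 2 of 2, at −2.82 to −2.77. Of the 5 testa and endosperm markers 1 was higher and 2 were lower, namely TT2 at 0.63 RPKM with cycloheximide against 0.01 in mock, MUM4 at 9.83 against 52.0 and AGL62 at 0.1 against 0.886. The part of a changed cell or RNA makeup in these results was not tested.

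CRA1, CRU3 and both oleosins were lower in mock than in wild type. In mock, 1 of the 10 genes was higher than in wild type and 4 were lower, where 14.2% of the background loci were higher and 11.9% lower (7.9% and 6.95% of all loci). The median was −0.25, against 0.15 for the background. CRA1 was at 0.105 times the wild type level (0.0917 to 0.118) and CRU3 at 0.107 times (0.0863 to 0.131). The ratio of OLEO1 was 0.0367 (0.00748 to 0.113) and that of OLEO2 0.0250 (0.00492 to 0.0725), each with 3 reads in mock. SESA1 was the gene called higher, with 149 reads in mock and 1 in wild type and a ratio of 144 (25.1 to 5639).

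**Figure D4:**
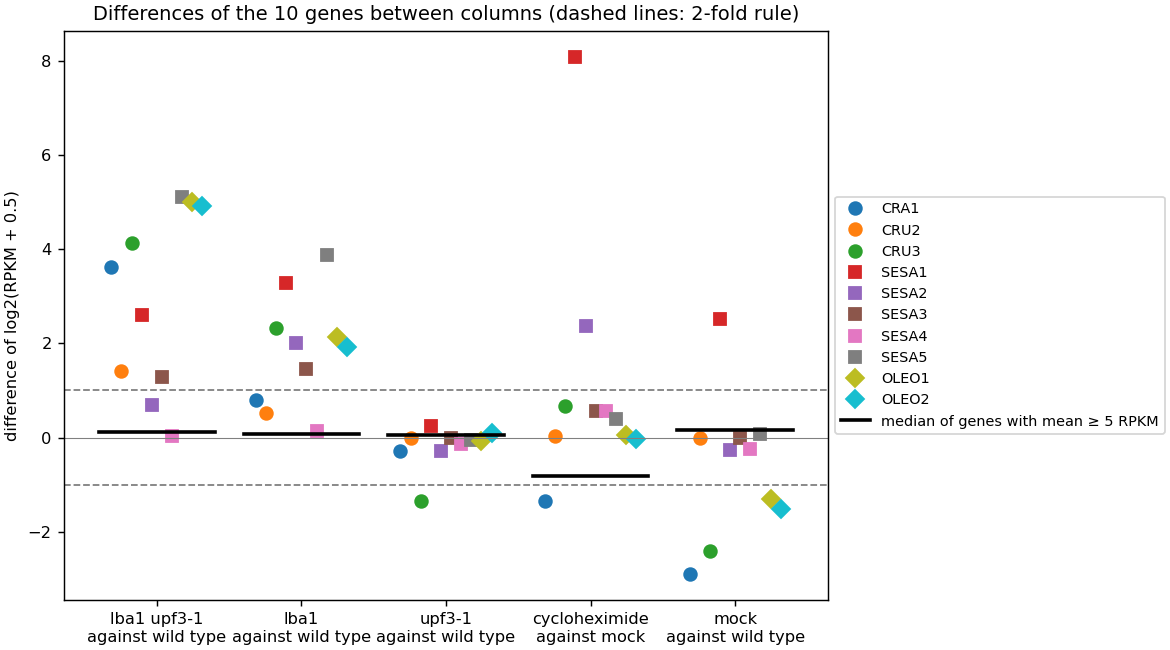
Differences of log2(RPKM + 0.5) of the 10 genes in 5 comparisons, 1 point per gene, with black bars for the median of the background loci and dashed lines at the 2-fold rule. The points of lba1 upf3-1 and lba1 lie at or above 0, those of upf3-1 lie near 0 apart from CRU3, and SESA1 stands alone at 8.07 with cycloheximide.

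Other genes of seed reserves and seed development were taken from 7 lists, and a single value in parentheses after a gene, or the last of several, is its difference of log2(RPKM + 0.5) unless RPKM is written beside it. A listed gene is said to reach 2-fold where that difference is at least 1 in size. Genes at low levels can miss this rule although their RPKM alone differ by more than 2-fold. The lists' counts stand beside the background shares and medians and were not tested. Those shares are 22.1% higher and 21.2% lower in lba1 upf3-1, 4.77% and 1.93% in lba1, and 13.3% and 44.1% with cycloheximide, with background medians of 0.12, 0.08 and −0.81. Of 10 further storage protein and oil body genes, 6 were higher in lba1 upf3-1 than in wild type and 0 lower, with a median of 2.49, and in lba1 6 were higher and 0 lower, with a median of 1.10. AT2G28490, a cupin storage protein gene, was at 60.2 RPKM in lba1 upf3-1 against 0.484 in wild type (5.95), and the oleosin gene AT2G25890 was at 22.4 against 0.359 (4.74). HSD1, a steroleosin, was at 8.72 RPKM in lba1 upf3-1 against 0.024 in wild type (4.14), and PAP85, a vicilin-like protein, at 9.38 against 0.146 (3.94). In lba1, AT2G28490 was at 4.52 RPKM against 0.484 in wild type (2.35), followed by PAP85 (2.17), the oleosin AT3G01570 (1.79) and the caleosin ATPXG2 (1.17). With cycloheximide 1 was higher than in mock and 2 lower, beside 13.3% and 44.1% of the background loci. The gene higher was AT1G03890, a cruciferin relative, at 0.687 RPKM against 0.013 in mock, and the oleosins OLEO4 (0.029 against 1.17 RPKM) and AT3G01570 (0.295 against 1.09 RPKM) were lower.

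All 7 late embryo and dormancy genes were higher in lba1 upf3-1 than in wild type, beside 22.1% of the background loci, with a median of 4.97. AT3G15670, a late embryogenesis abundant protein gene, was at 86.0 RPKM in lba1 upf3-1 against 0.762 in wild type (6.10), M17 at 146 against 2.42 (5.65), PER1, a peroxiredoxin of dry seeds, at 90.5 against 1.43 (5.56) and EM1 at 17.7 against 0.079 (4.97). In lba1, 5 of 7 were higher, led by EM1 (2.39), AT3G15670 (2.17), PER1 (2.06) and ECP63 (1.39). With cycloheximide, EM1 was at 33.9 RPKM against 0.448 in mock (5.18) and ECP63 at 3.26 against 0.151 (2.53), whereas the dehydrin RAB18 was at 1.33 against 21.3 (−3.57). The cycloheximide pair thus had 2 of 7 higher and 1 lower.

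Among 13 transcription factor genes of seed maturation, 6 were higher in lba1 upf3-1 than in wild type and 0 lower, with a median of 0.48. Beside them stand 22.1% and 21.2% of the background loci (14.7% and 14.3% of all loci). ABI3, the B3 factor of seed maturation, was at 5.63 RPKM in lba1 upf3-1 against 0.063 in wild type (3.44), ABI4 at 3.23 against 0 (2.90) and the bZIP factor ABI5 at 5.78 against 0.582 (2.54). The bZIP genes EEL (15.1 against 3.42 RPKM), BZIP25 (73.1 against 20.7) and the LEC1 relative NF-YB6 (0.851 against 0.138) were the other 3. FUS3 (0.099 against 0.045 RPKM), LEC2 (0.038 against 0.044), LEC1 (0 against 0.024), DPBF2 (0.042 against 0.012), WRI1 (1.94 against 2.07) and BZO2H1 (24.1 against 17.1) did not reach the rule. FUS3 and DPBF2 differed by more than 2-fold in RPKM alone, at levels far below the added 0.5. BZIP53 was listed at 0 in all 6 columns.

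In lba1, 0 of the 13 transcription factor genes reached the 2-fold rule in either direction on log2(RPKM + 0.5). The largest difference on that scale was that of EEL, at 6.94 RPKM against 3.42 in wild type (0.92). ABI3 was at 0.286 RPKM, against 0.063 in wild type, on 95 and 20 reads. Its ratio was 4.54 (2.75 to 7.67), and the added 0.5 brought its difference below the rule (0.48). ABI5 was at 0.934 RPKM against 0.582, a ratio of 1.60 (1.30 to 1.99). With cycloheximide, EEL was at 36.7 RPKM against 4.95 in mock (2.77) and WRI1, a regulator of seed oil synthesis, at 14.0 against 3.34 (1.91), while BZIP25 was at 19.3 against 42.5 (−1.12). ABI3 itself was at 0.019 RPKM with cycloheximide and 0.009 in mock, beside SESA1 at 795 and 2.45.

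None of the 14 repressors of the seed programme reached the 2-fold rule on log2(RPKM + 0.5) in lba1 upf3-1 or in lba1, with medians of −0.11 and 0.01. They include B3 factors of the VAL group, Polycomb proteins and histone deacetylases. In lba1 upf3-1 the chromatin remodeller PKL was at 6.36 RPKM against 11.9 in wild type (−0.86) and VAL3 at 0.31 against 0.805 (−0.69). The RPKM of VAL3 alone differed by more than 2-fold, and the added 0.5 brought its difference below the rule. In lba1 EMF2 (0.35) and CLF (0.26), both of Polycomb complexes, differed most. With cycloheximide 4 of 14 were lower than in mock, beside 44.1% of the background loci, namely MSI1 (−2.01), HD1 (−1.33), PKL (−1.03) and ASIL1 (7.84 against 16.2 RPKM), with a list median of −0.52 beside a background median of −0.81.

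Of 7 genes that process or sort storage proteins, 4 were higher in lba1 upf3-1 than in wild type and 0 lower, beside 22.1% and 21.2% of the background loci. They were the vacuolar processing enzymes ALPHA-VPE (10.6 against 0.814 RPKM, 3.08), DELTA-VPE (3.27 against 0.322, 2.20) and BETA-VPE (22.4 against 4.95, 2.07), and the sorting receptor VSR1 (76.7 against 37.9, 1.01). In lba1, 0 of 7 reached 2-fold, with GAMMA-VPE (−0.39) and BETA-VPE (−0.36) differing most, and with cycloheximide 4 of 7 were lower than in mock, beside 44.1% of the background loci. BETA-VPE (−2.16), GAMMA-VPE (−1.82), MAG1 (−1.75) and VSR1 (−1.51) were those 4.

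Genes that mobilise stored oil were higher in lba1 upf3-1 in 10 of 11 cases and lower in 0, beside 22.1% and 21.2% of the background loci, with a median of 1.93. Malate synthase (MLS) was at 35.6 RPKM in lba1 upf3-1 against 1.12 in wild type (4.48) and isocitrate lyase (ICL) at 179 against 8.28 (4.35), both of the glyoxylate cycle. ACX2, of beta-oxidation, was at 214 against 26.3 (3.00) and PKT3 at 471 against 70.7 (2.73). In lba1 only SDP1-LIKE, a lipase gene, reached 2-fold, at 8.25 RPKM against 2.17 in wild type (1.71), and it was at 8.97 in upf3-1 (1.83). With cycloheximide 5 of 11 were lower than in mock, a share near the 44.1% of the background loci, led by ACX2 (−2.88), LACS7 (−2.38), PKT3 (−1.98) and MFP2 (−1.97). Of the 4 genes of seed oil synthesis, TAG1 was higher in lba1 upf3-1 (26.2 against 7.01 RPKM, 1.83) and FAD3 lower (8.41 against 31.5, −1.84), none reached 2-fold in lba1 (TAG1 0.34 and FAD3 −0.28 differed most), and FAD3 (−2.05) and PDAT (−1.65) were lower with cycloheximide.

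**Figure D5:**
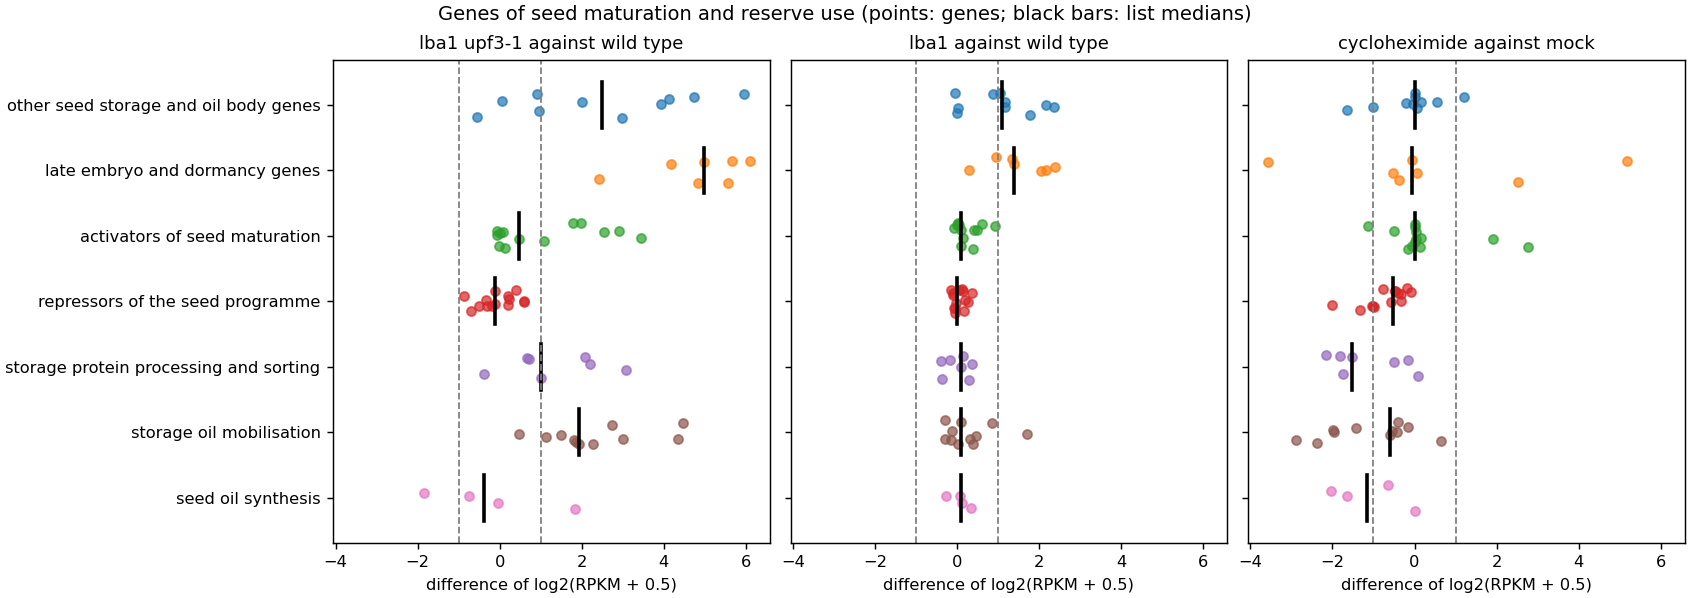
Differences of log2(RPKM + 0.5) of the genes on 7 lists in 3 comparisons, with 1 point per gene, black bars for list medians and dashed lines at the 2-fold rule. The row named activators of seed maturation holds the 13 transcription factor genes, and whether each activates was not tested. All late embryo genes lie to the right of the rule in lba1 upf3-1, the repressors lie between the lines in both mutants, and the cycloheximide panel spreads to both sides.

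In upf3-1, SDP1-LIKE was the sole gene of the 7 lists to reach 2-fold against wild type, beside 3.81% of the background loci higher and 0.547% lower. Against wild type, 14.2% of the background loci were higher in mock and 11.9% lower. In mock, ABI5 (1.21), BZIP25 (1.02), ACX2 (1.55) and TAG1 (1.03) were higher than in wild type, and ICL (−2.53), M17 (−1.92), PER1 (−1.82), GAMMA-VPE (−1.36) and MLS (−1.27) were lower. The same comparison had CRA1, CRU3 and both oleosins lower.

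The loci whose profile was most like the mean profile of the 10 genes were sought among 17196 loci with a mean of at least 1 RPKM and a range of at least 1 on the log2 scale. The likeness is Pearson's r over 6 columns, which share libraries and depth, and it is given as a description. It does not reflect the size of the changes. AT1G04700 (0.991), PRP40B (0.988) and RSU1 (0.982) came first for all 10 genes, followed by AT5G19840, AT2G44280, AT3G57570, OTS2 and AT5G37340, at 0.976 to 0.970. From mock to lba1 upf3-1, AT1G04700 ran from 0.7 to 2.16 RPKM, PRP40B from 4.17 to 9.94 and RSU1 from 0.521 to 4.92. The mean of the 10 genes mixes unlike profiles, with an r of −0.57 between CRA1 and SESA1. For the oleosin mean PER1 came first, at 0.999, and its 6 values were 90.5 RPKM in lba1 upf3-1, 7.53 in lba1, 1.59 in upf3-1, 0.029 with cycloheximide, 0.048 in mock and 1.43 in wild type. AT1G54870 (0.995) came next. For the albumin mean AT1G68250 came first (0.973), at 50.4 RPKM in lba1 upf3-1, 21.0 in lba1, 0.606 in upf3-1, 253 with cycloheximide, 0.366 in mock and 0.178 in wild type. AT5G16520 (0.967) and AT2G05590 (0.964) came next. For the cruciferin mean AT1G10530 (0.988) came first, and DSEL (0.988), a lipase gene of seedling establishment, was also among the leading 3.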

How the data were processed

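RNA libraries (12, in 6 groups of 2) were made with an Illumina TruSeq RNA kit, per the labels' protocols. The authors deposited RPKM values, 1 column per group, for 33602 loci, with TAIR10 as the build that the submitters' processing notes name. How reads were aligned and counted, and how 2 libraries became 1 column, is not given in the sources used here. Names, gene models and sequences came from RefSeq's TAIR10.1 annotation and genome (32835 locus codes matched; no start was taken from the deposited file), and all coordinates and upstream sequences are those of TAIR10.1. The windows of 2 of the 10 genes, which the motif counts include, and 1 locus of like pattern are not reported here.

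Reads were estimated as RPKM times length times a column total, with the total chosen so that low values (up to 8 reads) came out whole within 0.05 of a read. Dividing by the gene span gave 53.9% to 66.3% whole values for genes with long introns, against 6.94% to 11.3% with exon lengths. The length used (span plus 1 base) and the locus classes were chosen after several were tried on these data. Over all loci 63.5% to 70.0% of the values used were whole, so read counts are approximate. Totals were 87.8 M (lba1 upf3-1), 86.95 M (lba1), 90.25 M (upf3-1), 83.85 M (cycloheximide), 86.2 M (mock) and 82.05 M (wild type).

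Differences were taken on log2(RPKM + 0.5), with a 2-fold rule of size in place of a test, and a background of 14079 loci with a mean of at least 5 RPKM. Ratios have exact conditional 95% intervals, and a gene at 0 was set to a floor of 3 reads in that column. Both cover counting error only, and reads without molecular identifiers are not independent molecules. The genes and lists were chosen with earlier results of these data known. Named genes were the 10 genes, all 13 transcription factor genes of seed maturation, and loci of like pattern by Pearson's r. Of the other lists, up to 4 members past 2-fold were named (the largest differences first, or 2 where none passed). Alternatives were other pseudocounts, median scaling, quantile normalization, a filter on the mean and a 4-fold rule. Python 3.11.15 was used with pandas 2.3.3, scipy 1.17.1 and biopython 1.88, and the steps were tested on simulated data.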

Additional observations from a re-analysis of the deposited data

How the results depend on the processing

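No paired analysis was possible because the file holds 1 column per group, with no replicate columns, and for the same reason no replicate could be left out. Of 96 counts of the 10 genes under 6 alternatives, 79 stayed within 1.5 times and 17 moved. Keeping the 5 genes that averaged 5 RPKM or more gave 4 higher in lba1, 5 higher in lba1 upf3-1, 1 higher with cycloheximide, 5 higher for lba1 against upf3-1, 5 higher for lba1 upf3-1 against upf3-1 and 0 lower for lba1 upf3-1 against lba1. These 6 of the 17 moved counts are out of 5 genes, not 10, so a lower count is not a lower share. The 5 genes passed through the columns in which they were high, so their counts are no check of the differences. The 4-fold rule gave 0 lower in upf3-1, 0 lower with cycloheximide, 2 lower in mock, 5 higher for lba1 against upf3-1, and 3 higher and 0 lower for lba1 upf3-1 against lba1. A pseudocount of 0.1 gave 5 higher with cycloheximide (SESA3, SESA4 and SESA5 joining), and a pseudocount of 1 gave 0 lower there and 2 lower in mock. Median scaling gave 0 lower with cycloheximide, CRA1 being at −0.97, and CRU3 became a further gene called higher there, at 1.21 (1.22 after quantile normalization), and quantile normalization gave 0 lower for lba1 upf3-1 against lba1, SESA2 being at −0.95. No difference past the 2-fold rule changed sign, and 296 of 320 differences of single genes kept their side of the rule. Below the rule, 3 changed sign, namely SESA3 in lba1 upf3-1 against lba1 (−0.16, and 0.15 after quantile normalization), SESA4 in lba1 upf3-1 against wild type (0.02 and −0.02) and OLEO2 with cycloheximide (−0.02, and 0.01 after median scaling). The median of the background loci, −0.81 with cycloheximide as deposited, was −0.10 after median scaling and −0.23 after quantile normalization. In lba1 upf3-1 it was 0.12 as deposited and −0.02 after median scaling. Without the filter on the mean, 10 of 16 background counts moved by over 1.5 times. Counts of 3 reads or fewer, which 4 of the 10 genes had in wild type, 4 in upf3-1, 5 in mock and 2 with cycloheximide, limit every ratio taken against them.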
